A study of Mus musculus with 12 samples.

Results

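The Slc25 genes encode the mitochondrial carriers, and they were followed here through β-adrenergic stimulation of white adipocytes with and without lipolysis. Members were the genes of the count table whose symbol is Slc25a followed by a number, which gave 47 of 20295 genes (0.232%). Of these, 39 had enough counts to be tested. The other 8 (Slc25a2, Slc25a18, Slc25a21, Slc25a27, Slc25a31, Slc25a41, Slc25a48 and Slc25a54) were too low in every group, with at most 42 counts in any library (Slc25a48 in Lip 3).

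Carriers of this family sit mostly in the inner mitochondrial membrane, which is closed to charged metabolites, and each moves a narrow set of substrates between the cytosol and the matrix. Phosphate, ADP and ATP pass in this way to and from the ATP synthase, as do the cofactors, amino acids and nucleotides that the matrix does not make. In adipocytes, the citrate carrier feeds fatty acid synthesis, the carnitine-acylcarnitine carrier brings activated FAs to β-oxidation, and the related uncoupling protein UCP1, which has a symbol of its own, generates heat.

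Epididymal white adipocytes (eWAs) came from lean male C57/BL6J mice. After digestion of the fat pad they were recovered by flotation, embedded in a hydrogel at 50000 cells per well and cultured for 2 days. The 4 groups, of 3 libraries each, were DMSO (neither lipase inhibitors nor ISO), ISO (the β-adrenergic agonist isoproterenol for 3 h), Lip (lipase inhibitors without ISO) and Lip+ISO (lipase inhibitors followed by ISO for 3 h). The study's methods name Atglistatin, which blocks ATGL, and CAY10499, which blocks HSL, as its lipase inhibitors. These are whole cultures, so fewer cells of a type and less RNA per cell cannot be told apart. No label gives the number of mice pooled.

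The 12 libraries held 22632220 to 43707557 counts, and the family took 0.373% to 0.448% of them. Adipocyte markers (7 genes, among them Adipoq and Plin1) summed to 22643 to 35473 CPM (counts scaled to library size and by the trimmed mean of M values, TMM) in all libraries. Other cell types were present at low level and moved with the groups. The summed level of 7 fibroblast markers was 330 to 590 CPM in DMSO, 662 to 904 in ISO, 448 to 484 in Lip and 430 to 563 in Lip+ISO, and that of 7 endothelial markers was 102 to 198, 246 to 448, 51.9 to 175 and 80.5 to 241 in the same order. For 8 macrophage markers it was 48.2 to 61.6, 92.8 to 140, 50.6 to 56.9 and 58.8 to 104 CPM, and for 5 mesothelial markers 18.8 to 44.4, 45.3 to 53.7, 9.45 to 48.6 and 17.99 to 34.0 CPM. Between ISO and DMSO, 4 of 7 tested macrophage, 3 of 7 fibroblast and 1 of 7 endothelial markers were called higher by edgeR. Of the mesothelial markers 0 of 5 were called, with a median log2 fold change of 0.75. Over all tested genes 12.3% were called higher. Cd163 had no count in DMSO 2 and Msln none in Lip 1. The part of these cells in the results on ISO against DMSO and Lip+ISO against ISO was not tested.

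A few abundant carriers made up most of the family. On a scale per length (CPM per kb of counted exon), the highest in DMSO was the ADP/ATP carrier Slc25a4 with a mean of 347, before its paralog Slc25a5 with 249 and the phosphate carrier Slc25a3 with 233. The citrate carrier Slc25a1 followed with 201, Slc25a39, which is needed for glutathione uptake, with 181, and the dicarboxylate carrier Slc25a10 with 105. Together these 6 took 67.4% of the summed level of the family per kb in DMSO. At the other end, 13 of the 47 members had a DMSO mean under 1 CPM per kb, the 8 untested ones among them. Reads of the paralogs Slc25a4 and Slc25a5 may be shared where their sequences match, which was not tested, and their levels are uncertain to that extent.

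**Figure D1:**
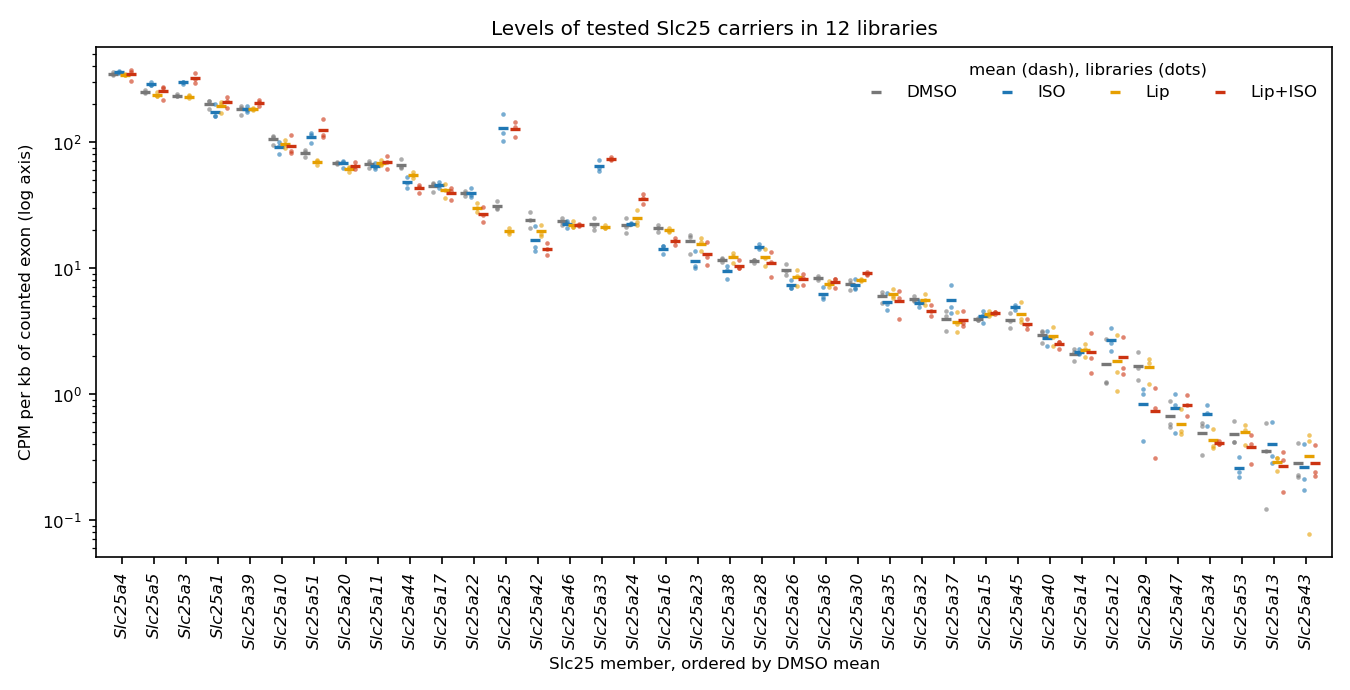
Level of 38 of the 39 tested Slc25 carriers in CPM per kb of counted exon on a log axis, ordered by the DMSO mean, with the 3 libraries of each group as dots and the group mean as a dash. The order spans from Slc25a4 at 347 to Slc25a43 at 0.285 CPM per kb in DMSO, and Slc25a25 and Slc25a33 stand out from their neighbours in the ISO and Lip+ISO groups.

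With lipolysis intact, 2 carriers rose strongly with ISO, the ATP-Mg/phosphate carrier Slc25a25 by 4.15-fold and the pyrimidine nucleotide carrier Slc25a33 by 2.88-fold. Milder rises were called for the NAD carrier Slc25a51 and the phosphate carrier Slc25a3, and 6 carriers, 4 of them from the group of cofactor and nucleotide carriers, fell by less than 1 on the log2 scale. A call is an adjusted p at or under 0.05 by edgeR's quasi-likelihood test over all 13543 tested genes. In all, 4 of the 39 tested members were higher in ISO than in DMSO, where 12.3% of all tested genes were higher, and 6 were lower, where 13.9% of all genes were lower. The remaining 29 did not pass. The median log2 fold change of the members was -0.01, beside 0.00 for all tested genes. When only a log2 fold change of at least 1 was counted, 2 of 39 members were higher, beside 5.68% of all genes. Scaled by library totals alone, which moved the median of all genes to -0.04, the split of calls was 4 higher and 8 lower, and with DESeq2-style size factors it was 4 and 4, without Slc25a23 (adjusted p = 0.0529) and Slc25a26 (0.0541).

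**Figure D2:**
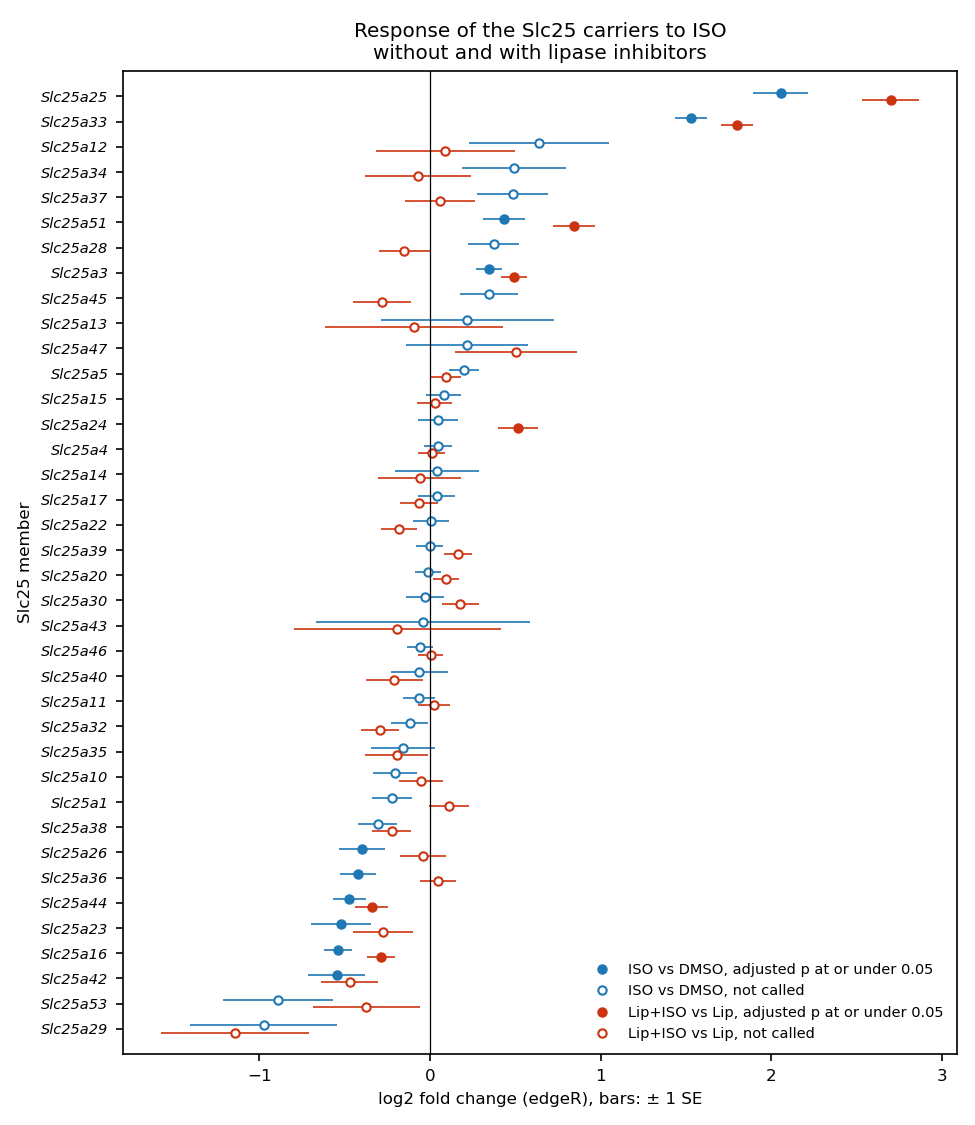
Log2 fold change of 38 of the 39 tested carriers with ISO, without lipase inhibitors (blue, ISO against DMSO) and with them (red, Lip+ISO against Lip), with bars of 1 SE and filled points for an adjusted p at or under 0.05. Slc25a25 (2.05 and 2.70) and Slc25a33 (1.53 and 1.80) lie apart from the other members in both comparisons.

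Among the carriers of the energy group, Slc25a25 exchanges ATP-Mg for phosphate across the inner membrane under the control of calcium and so sets the size of the matrix nucleotide pool. Its level was 99.6, 85.3 and 87.5 CPM in DMSO and 489, 297 and 345 CPM in ISO. In the cultures with lipase inhibitors it was 60.8, 56.9 and 54.8 CPM without ISO (Lip) and 419, 319 and 382 CPM with it (Lip+ISO). Every ISO-treated library lay above every library without ISO, and ISO 1 was the highest of all. The log2 fold change was 2.05 ± 0.16 (SE; edgeR adjusted p = 2.11e-06) without the inhibitors and 2.70 ± 0.17 (adjusted p = 1.35e-07) with them. Per length, Slc25a25 went from place 13 in the family in DMSO (30.9 CPM per kb) to place 6 in ISO (128 CPM per kb), and from place 18 in Lip (19.6) to place 6 in Lip+ISO (127). The count span of Slc25a25 overlaps that of Naif1 on the other strand by 1014 bases, and since no source states that strand was used in counting, reads there cannot be assigned. The mean of Naif1 over the 12 libraries was 5.63 CPM.

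The family has other ATP-Mg/phosphate carriers, whose values were unlike those of Slc25a25. Slc25a23 had 61.3, 43.1 and 58.7 CPM in DMSO and 45.4, 35.0 and 33.5 CPM in ISO, with DMSO 2 below ISO 1, and its log2 fold change was -0.52 ± 0.18 (adjusted p = 0.0467). This call was lost without DMSO 1 (adjusted p = 0.163), DMSO 3 (0.143), ISO 2 (0.147), ISO 3 (0.151), Lip 1 (0.056) or Lip+ISO 2 (0.0558). With the inhibitors Slc25a23 had a log2 fold change of -0.27 ± 0.18 (adjusted p = 0.294). Slc25a24 had 63.9, 71.7 and 84.5 CPM in DMSO and 75.0, 75.8 and 76.6 CPM in ISO (log2 fold change 0.05 ± 0.12, adjusted p = 0.796), but 74.2, 78.4 and 97.7 CPM in Lip and 129, 108 and 121 CPM in Lip+ISO. The Lip+ISO libraries were above all others, and the rise over Lip was 0.52 ± 0.12 on the log2 scale (adjusted p = 0.00561).

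Slc25a3, which supplies the ATP synthase with phosphate, was 346, 350 and 359 CPM in DMSO and 437, 455 and 452 CPM in ISO, and 335, 348 and 353 CPM in Lip and 446, 475 and 534 CPM in Lip+ISO. The groups with and without ISO did not overlap, and the rise was small, at 0.35 ± 0.08 (adjusted p = 0.0052) without and 0.49 ± 0.08 (adjusted p = 0.00035) with the inhibitors on the log2 scale. The ADP/ATP carriers were not called in either comparison. Slc25a4 had a log2 fold change of 0.05 ± 0.08 with ISO alone (adjusted p = 0.698), with DMSO at 383 ± 8.60 CPM and ISO at 396 ± 8.01 CPM (mean ± SD, n = 3 libraries each). Slc25a5 had 0.20 ± 0.09 (adjusted p = 0.111), which passed when Lip+ISO 1 was left out (adjusted p = 0.035). Of the 6 tested energy carriers, 2 were higher and 1 lower with ISO alone, and 3 were higher and 0 lower with the inhibitors, where Slc25a23 had an unadjusted p of 0.145. Over all tested genes these shares were 12.3% and 13.9% with ISO alone and 11.5% and 15.8% with the inhibitors.

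Cofactor and nucleotide carriers were called in both directions. Slc25a33 imports pyrimidine nucleotides for the synthesis of mitochondrial DNA and RNA. It was 40.5, 46.7 and 37.7 CPM in DMSO and 134, 115 and 111 CPM in ISO, and 40.98, 39.05 and 38.97 CPM in Lip and 143, 136 and 134 CPM in Lip+ISO. The lowest ISO-treated library was at 111 CPM and the highest of the others at 46.7 CPM. The log2 fold change was 1.53 ± 0.09 (adjusted p = 2.85e-07) without inhibitors and 1.80 ± 0.09 (adjusted p = 3.2e-08) with them. Slc25a36, the other pyrimidine nucleotide carrier, went the opposite way with ISO alone, from 25.4, 24.7 and 26.2 CPM in DMSO to 21.5, 17.4 and 17.9 CPM in ISO (log2 fold change -0.42 ± 0.11, adjusted p = 0.0105). That fall missed the threshold without ISO 2 (adjusted p = 0.051), and between Lip+ISO and Lip the value was 0.04 ± 0.10 (adjusted p = 0.808), with 24.9, 21.0 and 24.7 against 21.5, 22.9 and 23.9 CPM.

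Slc25a51 brings NAD into the matrix. Its level was 366, 336 and 379 CPM in DMSO and 500, 437 and 525 CPM in ISO (log2 fold change 0.44 ± 0.12, adjusted p = 0.0197), and it was 321, 288 and 312 CPM in Lip and 499, 480 and 673 CPM in Lip+ISO (0.84 ± 0.12, adjusted p = 0.000204). All ISO-treated libraries were above all libraries without ISO, and Lip+ISO 3 was the highest. The rise with ISO alone was not called without DMSO 1 (adjusted p = 0.0542), DMSO 2 (0.0723) or ISO 3 (0.0754), whereas that with the inhibitors was called with any 1 of the 12 libraries left out.

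The other cofactor carriers that were called fell. Slc25a16, a relative of the coenzyme A carrier, was 68.3, 60.9 and 65.3 CPM in DMSO and 46.4, 40.4 and 47.05 CPM in ISO, with no overlap (log2 fold change -0.54 ± 0.08, adjusted p = 0.000439). With the inhibitors it was 64.7, 60.3 and 61.3 CPM in Lip and 47.9, 50.9 and 53.9 CPM in Lip+ISO (-0.29 ± 0.08, adjusted p = 0.0194), a call that was lost without Lip 1 (adjusted p = 0.0969), Lip+ISO 1 (0.0654) or Lip+ISO 2 (0.059). The coenzyme A carrier Slc25a42 was 88.1, 65.1 and 75.8 CPM in DMSO and 68.3, 46.0 and 42.8 CPM in ISO, where ISO 1 was above DMSO 2 (-0.55 ± 0.17, adjusted p = 0.0293). Its call was lost without DMSO 1 (adjusted p = 0.125), DMSO 3 (0.0741), ISO 2 (0.117) or ISO 3 (0.117). Between Lip+ISO (44.8, 39.9 and 49.4 CPM) and Lip (69.7, 56.8 and 59.3 CPM) its libraries did not overlap. The log2 fold change was -0.47 ± 0.17 (adjusted p = 0.054), and it passed without ISO 1 (adjusted p = 0.0137) or ISO 3 (0.0442). DESeq2 also called Slc25a42 lower here, as did the fit limited to Lip+ISO and Lip and the one blocked by replicate number. So did edgeR when TMM factors were left out or when genes of low count were kept. With DESeq2-style size factors Slc25a42 was not called. The S-adenosylmethionine carrier Slc25a26 was 19.1, 15.6 and 16.9 CPM in DMSO and 14.5, 12.4 and 12.3 CPM in ISO, all ISO libraries being lower (-0.40 ± 0.14, adjusted p = 0.0469), and the call was lost without DMSO 1 (0.175), DMSO 3 (0.0969), ISO 2 (0.142), ISO 3 (0.131), Lip 2 (0.0592) or Lip+ISO 2 (0.0594), and without the filter on low counts (0.0532). Slc25a26 overlaps Lrig1 on the other strand by 124 bases. Counting the whole group of 9 cofactor and nucleotide carriers, 2 were higher and 4 lower with ISO alone, and 2 were higher and 1 lower with the inhibitors, beside shares over all genes of 12.3% and 13.9%, and of 11.5% and 15.8%.

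In the amino acid group, 1 of 9 tested carriers was called in the main fit, the same one in both comparisons. It was lower in each, where 13.9% of all genes were lower with ISO alone and 15.8% with the inhibitors. Slc25a44, the carrier of branched-chain amino acids, was 221, 220 and 259 CPM in DMSO and 185, 153 and 166 CPM in ISO, and 203, 181 and 193 CPM in Lip and 154, 139 and 161 CPM in Lip+ISO. Each ISO-treated group lay below its own control without overlap. The log2 fold change was -0.47 ± 0.10 (adjusted p = 0.0031) without and -0.34 ± 0.10 (adjusted p = 0.0172) with the inhibitors, and the latter was lost without Lip 1 (adjusted p = 0.0798) or Lip+ISO 2 (0.0821). Slc25a29, which carries basic amino acids, had the most negative values of the family, -0.97 ± 0.43 (adjusted p = 0.112) and -1.14 ± 0.43 (adjusted p = 0.0703), at levels of 0.606 to 4.20 CPM. The second of these passed without ISO 1 (adjusted p = 0.0487) or Lip+ISO 3 (0.0329). DESeq2 and the fit blocked by replicate number also called Slc25a29 lower there. The blocked fit called it lower in ISO than in DMSO as well.

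Carriers that serve FA oxidation and FA synthesis were not called with ISO in the main fit. Slc25a1 was called lower in ISO than in DMSO when libraries were scaled by their totals alone. The same call was made when the replicate number was added to the fit as a block. Slc25a20, which carries acylcarnitines into the matrix, was 120, 119 and 124 CPM in DMSO and 126, 111 and 123 CPM in ISO (log2 fold change -0.01 ± 0.07, adjusted p = 0.913), and its value with the inhibitors was 0.09 ± 0.07 (adjusted p = 0.41). Slc25a1, the exporter of citrate, was 352, 304 and 355 CPM in DMSO and 332, 267 and 267 CPM in ISO (-0.22 ± 0.12, adjusted p = 0.177) and had a value of 0.11 ± 0.12 with the inhibitors (adjusted p = 0.544). For the dicarboxylate carrier Slc25a10 the values were -0.20 ± 0.13 (adjusted p = 0.267) and -0.05 ± 0.13 (adjusted p = 0.822), and for the oxoglutarate/malate carrier Slc25a11 they were -0.06 ± 0.09 (adjusted p = 0.642) and 0.02 ± 0.09 (adjusted p = 0.89). The iron carrier Slc25a28 had 17.6, 16.9 and 17.6 CPM in DMSO and 21.5, 22.3 and 23.7 CPM in ISO, without overlap (0.37 ± 0.15, adjusted p = 0.0837; 0.0335 without Lip+ISO 1), and -0.15 ± 0.15 with the inhibitors (adjusted p = 0.511). Its paralog Slc25a37 had 0.48 ± 0.21 (adjusted p = 0.103) and 0.06 ± 0.21 (adjusted p = 0.878). The remaining tested carriers without a call, among them the uncoupling protein relatives Slc25a14 and Slc25a30, are in the plot of the ISO responses.

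With the lipases inhibited, the 4 carriers that rose with ISO alone rose again, and Slc25a24 was called besides. Thus 5 of the 39 tested members were higher in Lip+ISO than in Lip, where 11.5% of all genes were higher, and 2 were lower, where 15.8% of all genes were lower. The median of the members was -0.04, beside 0.00 for all genes. At a log2 fold change of at least 1, 2 of 39 members were higher, beside 4.19% of all genes. Library totals alone moved the median of all genes to -0.12 and gave 5 members higher and 5 lower. Leaving out Lip 1 gave 0 lower members and leaving out Lip+ISO 3 gave 4, Slc25a32 (adjusted p = 0.0445) and Slc25a29 being added. Slc25a25, Slc25a33 and Slc25a3 were called with any 1 of the 12 libraries left out in both comparisons, as were Slc25a16 and Slc25a44 for ISO against DMSO and Slc25a24 and Slc25a51 for Lip+ISO against Lip. In that second comparison the summed fibroblast markers overlapped between the groups (430 to 563 CPM in Lip+ISO and 448 to 484 in Lip), as did the endothelial markers (80.5 to 241 and 51.9 to 175), whereas the macrophage markers did not (58.8 to 104 and 50.6 to 56.9). The median log2 fold change of the tested markers was 0.61 for endothelial (0.21 to 1.5), 0.30 for macrophage (0.09 to 0.87) and 0.12 for fibroblast markers (-0.13 to 1.61). The macrophage marker Csf1r (0.87, adjusted p = 0.0428) and the endothelial marker Cldn5 (1.5, adjusted p = 0.0348) were higher in Lip+ISO. The part of these cells in the calls of Lip+ISO against Lip was not tested.

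**Figure D3:**
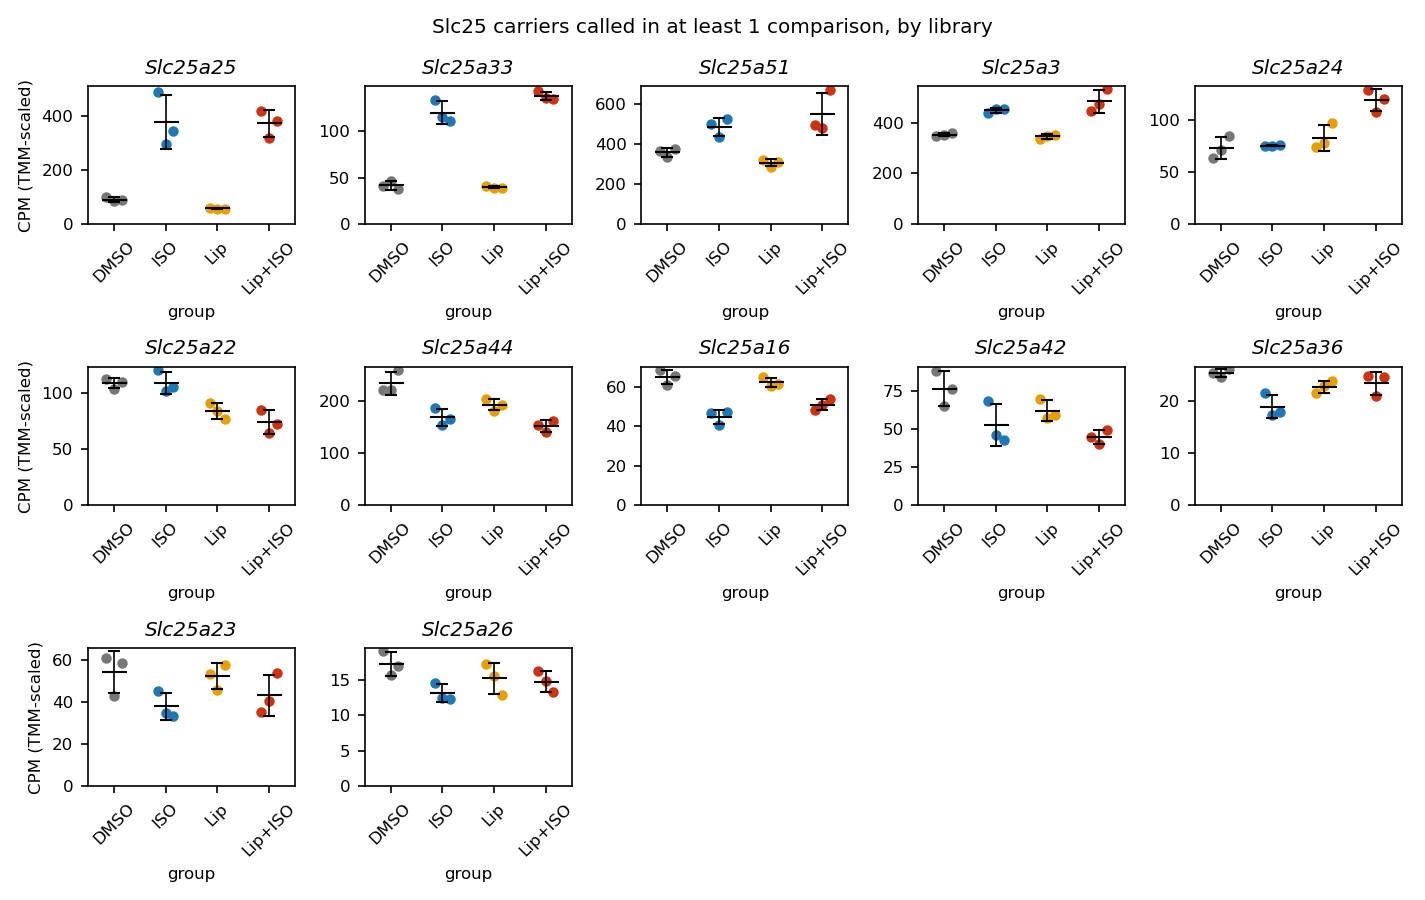
CPM in each library for 12 of the 13 carriers called in at least 1 comparison, as coloured dots by group, with the mean and SD (n = 3) in black. For Slc25a25, Slc25a33, Slc25a51 and Slc25a3 the ISO and Lip+ISO libraries are above all DMSO and Lip libraries, Slc25a24 is highest in Lip+ISO (108 to 129 CPM), and Slc25a22 is lower in Lip and Lip+ISO (64.0 to 91.0 CPM) than in DMSO and ISO (102 to 120 CPM).

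The summed level of the family is given as a description. All 47 members together had 3670 to 3978 CPM in DMSO and 3998 to 4574 in ISO, and 3494 to 3699 in Lip and 4213 to 4847 in Lip+ISO. Without Slc25a25 and Slc25a33, the sum of the other 45 was 3538 to 3853 in DMSO and 3585 to 3950 in ISO, and 3398 to 3597 in Lip and 3706 to 4330 in Lip+ISO. The ISO and DMSO ranges then overlapped, while those of Lip+ISO and Lip did not. Per length, the 3 carriers Slc25a3, Slc25a4 and Slc25a5 held 42.5%, 44%, 43.5% and 41.6% of the family in DMSO, ISO, Lip and Lip+ISO, and Slc25a25 alone went from 1.58% in DMSO to 6% in ISO.

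Without ISO, the inhibitors gave no called member in the fit without a replicate term. Between Lip and DMSO, 0 of 39 members were higher and 0 lower by edgeR, beside 0.00738% and 0.0443% of all tested genes, and 3 members had an unadjusted p under 0.05. The lowest was that of Slc25a25, whose 3 Lip libraries (54.8 to 60.8 CPM) were all below the 3 DMSO libraries (85.3 to 99.6 CPM). Its log2 fold change was -0.66 ± 0.16 with an adjusted p of 0.353 by edgeR and 0.0297 by DESeq2, the latter being the only member call that DESeq2 made there. It was also called with only the Lip and DMSO libraries in the fit (adjusted p = 0.0485). The others were the glutamate carrier Slc25a22 (-0.38 ± 0.11, adjusted p = 0.568) and Slc25a44 (-0.28 ± 0.10, adjusted p = 0.787).

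Under ISO, 3 members differed with the inhibitors. Between Lip+ISO and ISO, 2 of 39 were higher, beside 4.36% of all genes, and 1 was lower, beside 4.59% of all genes. The median of the members was 0.02 and that of all genes -0.01. Slc25a24 rose by 0.66 ± 0.12 on the log2 scale (adjusted p = 0.00422), its ISO libraries having 75.0 to 76.6 CPM and its Lip+ISO libraries 108 to 129 CPM.

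Slc25a22 imports glutamate into the matrix. It was 120, 102 and 106 CPM in ISO and 85.0, 64.0 and 72.7 CPM in Lip+ISO, with no overlap, and fell by 0.56 ± 0.11 on the log2 scale (adjusted p = 0.00554). Its level in DMSO was 113, 103 and 110 CPM and in Lip 91.0, 83.5 and 76.7 CPM, so that every library with inhibitors was below every library without them. Slc25a22 and Slc25a24 kept their calls with any 1 of the 12 libraries left out. Leaving out ISO 1 added Slc25a36 (0.41, adjusted p = 0.035), and leaving out Lip+ISO 3 added Slc25a28 (-0.57, adjusted p = 0.0435). With all 12 libraries, DESeq2 also called Slc25a36 higher. The fit blocked by replicate number added Slc25a36 and Slc25a1 (higher) and Slc25a17, Slc25a28 and Slc25a45 (lower). In this comparison 3 of 7 fibroblast markers and 1 of 7 endothelial markers were lower in Lip+ISO, beside 4.59% of all genes. The part of these cells in the calls was not tested.

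The carriers that rose most with ISO were not called for the inhibitors. Between Lip+ISO and ISO, Slc25a25 had a log2 fold change of -0.02 ± 0.16 (adjusted p = 0.968; 0.22 without ISO 1, adjusted p = 0.306), Slc25a33 0.20 ± 0.09 (adjusted p = 0.2) and Slc25a51 0.18 ± 0.12 (adjusted p = 0.417). These p-values miss the threshold, which does not show that the levels were alike.

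**Figure D4:**
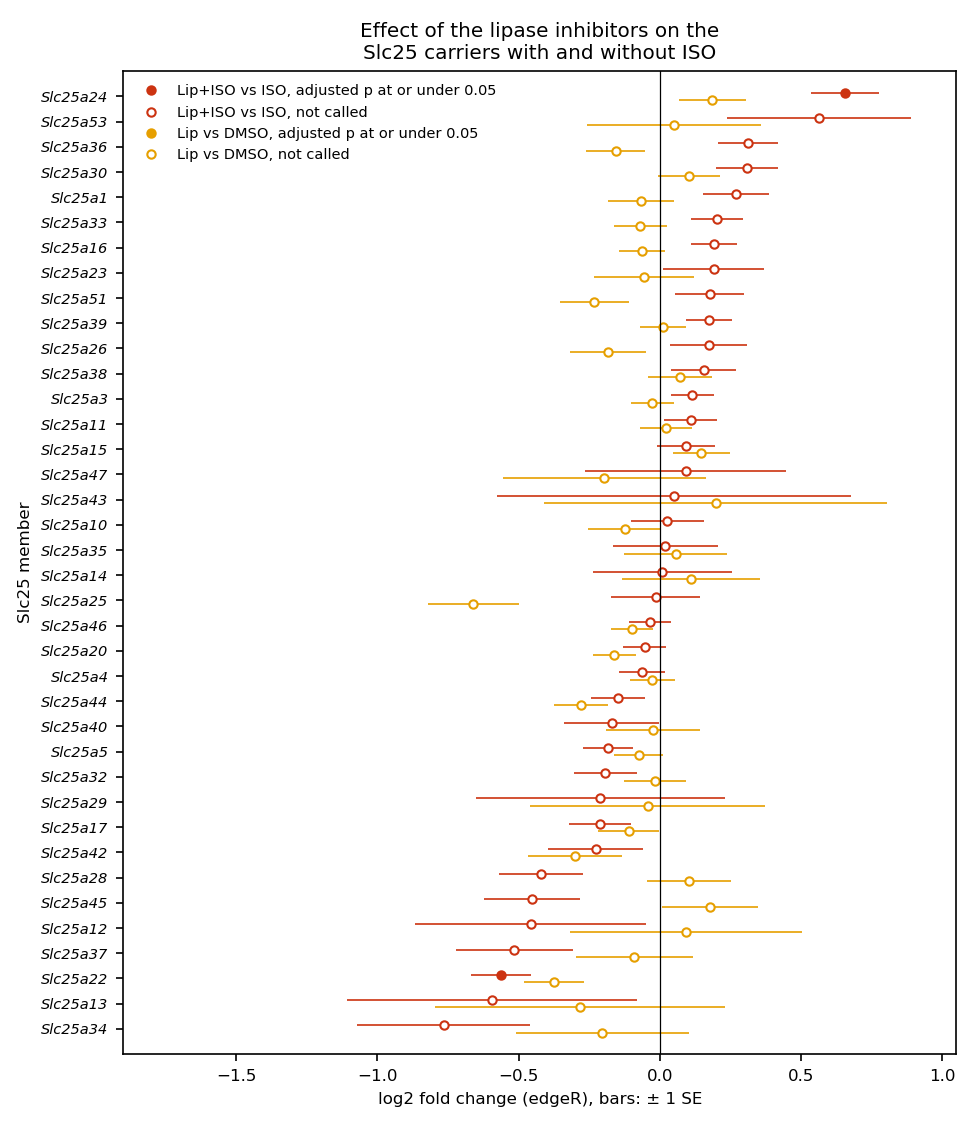
Log2 fold change of 38 of the 39 tested carriers with lipase inhibitors against without, under ISO (red, Lip+ISO against ISO) and without it (orange, Lip against DMSO), with bars of 1 SE and filled points for an adjusted p at or under 0.05. Slc25a24 (0.66) and Slc25a22 (-0.56) are filled, and no plotted carrier is filled for Lip against DMSO, where Slc25a25 (-0.66) lies farthest from 0.

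Whether the response to ISO itself differed with the inhibitors was tested by the interaction, the log2 fold change of Lip+ISO over Lip minus that of ISO over DMSO. In the fit without a replicate term, no member was called by edgeR (0 of 39 higher and 0 lower, beside 0.901% and 0.724% of all genes) or by DESeq2, and 8 members had an unadjusted p under 0.05. The lowest adjusted p was that of Slc25a36 (0.47 ± 0.15, adjusted p = 0.161). Slc25a25 had 0.64 ± 0.22 (adjusted p = 0.206) and was called without ISO 1 (0.88, adjusted p = 0.0227). When the replicate number was added to the edgeR fit as a block, Slc25a25 was called as well (0.66, adjusted p = 0.0201). Values for Slc25a24, Slc25a51 and Slc25a33 were 0.47 ± 0.17 (adjusted p = 0.222), 0.41 ± 0.17 (adjusted p = 0.312) and 0.27 ± 0.13 (adjusted p = 0.391). A call of Slc25a24 with ISO in the inhibited cultures and not in the others therefore does not show that its responses differed.

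The carriers with a log2 fold change over 1 are shown with their promoters, since the agonist acts through cAMP and the factor CREB binds the cAMP response element. In the count table, whose coordinates are those of mm9, Slc25a25 (NM_146118) spans chr2:32270007-32306990 and Slc25a33 (NM_027460) chr4:149118145-149148376, both on the minus strand. The sequences are RefSeq's on build GRCm38.p6, so their positions are not those of the table. They are the 250 bases before a start site, read 5′ to 3′ on the gene's strand, with matches to the element TGACGTCA or its core TGACG on either strand in capitals. Slc25a25 has 3 starts in the RefSeq table. The one shown (chr2:32424067-32424316) is the most downstream of them and the only one with a match, 150 bases before the start. It was chosen for that match, and which of the starts belongs to the counted NM_146118 was not tested. The stretch of Slc25a33 (chr4:149774268-149774517) has cores 28 and 4 bases before the start, the latter running past the end of the stretch.
Slc25a25: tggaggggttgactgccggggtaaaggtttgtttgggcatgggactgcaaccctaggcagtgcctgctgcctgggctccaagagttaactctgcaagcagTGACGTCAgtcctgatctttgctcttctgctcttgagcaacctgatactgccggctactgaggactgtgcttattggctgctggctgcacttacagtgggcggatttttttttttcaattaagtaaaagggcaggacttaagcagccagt
Slc25a33: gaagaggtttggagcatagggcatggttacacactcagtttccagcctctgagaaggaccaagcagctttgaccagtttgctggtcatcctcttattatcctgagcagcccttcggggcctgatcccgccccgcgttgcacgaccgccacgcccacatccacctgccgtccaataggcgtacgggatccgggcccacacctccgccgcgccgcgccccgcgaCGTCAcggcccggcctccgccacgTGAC

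Promoters of 36 of the 47 members were in the RefSeq table, as 46 stretches of 250 bases before and 50 after a start. The full element was in 2 of these 46, those of Slc25a25 and Slc25a36, and in 1.79% of all 32851 promoters. Slc25a36 was lower with ISO and Slc25a25 higher. The core, which the full element contains, was in 13 of the 46 (12 members) and in 20.8% of all promoters. A PPAR-type repeat AGGTCANAGGTCA was in none of the 46 and in 0.0396% of all promoters, and the element TCAAGGTCA of the estrogen-related receptors was in none and in 0.423% of all. Both strands were searched. The counts are summed per gene and cannot tell which start of Slc25a25 was used.

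Partner genes of the carriers that have other names were read from a list of 37, of which 33 were in the table and tested. With ISO alone 7 of the 33 were higher and 1 lower, and with the inhibitors 9 were higher and 1 lower. Among all tested genes 12.3% were higher and 13.9% lower with ISO alone, and 11.5% higher and 15.8% lower with the inhibitors. Several of these partner calls were lost in some of the 12 fits without 1 library. With ISO alone, Agk (lower) and Got2 lost theirs in 5 fits each, Mpc2 in 4, and Mtch1 and Vdac1 in 3 each. With the inhibitors, Vdac3 lost its call in all 12, and Acly and Mpc1 in 1 each. The other partner calls of these 2 comparisons were kept. Ucp1, the uncoupling protein, rose from 0.347 to 0.545 CPM in DMSO to 100 to 142 CPM in ISO (8.11 ± 0.37 on the log2 scale, adjusted p = 3.12e-08) and from 0.447 to 1.33 CPM in Lip to 192 to 310 CPM in Lip+ISO (8.22 ± 0.35, adjusted p = 5.22e-09). Got1, the cytosolic aspartate aminotransferase of the malate-aspartate shuttle, rose by 1.27 ± 0.17 (adjusted p = 0.000192) and 1.64 ± 0.17 (adjusted p = 1.42e-05), while the aspartate/glutamate carriers of that shuttle were not called (Slc25a12 0.64 ± 0.41 and 0.09 ± 0.41, Slc25a13 0.22 ± 0.51 and -0.09 ± 0.52). Cpt1a, which makes the acylcarnitines that Slc25a20 carries, had 0.21 ± 0.08 with ISO alone (adjusted p = 0.075) and rose by 0.59 ± 0.08 with the inhibitors (adjusted p = 0.000116). Between Lip+ISO and ISO, 3 partners were higher and 1 lower, beside 4.36% and 4.59% of all genes. Ucp1 had 0.86 ± 0.23 (adjusted p = 0.0355, and up to 0.14 in the 6 of 12 fits without 1 library that lost the call). Of these 12 fits, 10 lost the call of Cpt1a (higher), 4 that of Acly (higher) and 1 that of Slc22a5 (lower). Of the 5 brown or beige adipocyte markers, 3 were higher in either comparison with ISO. Their sum was 3.90 to 5.46 CPM in DMSO, 117 to 159 in ISO, 5.12 to 6.01 in Lip and 264 to 405 in Lip+ISO, of which Ucp1 made up 100 to 142 CPM in ISO, and Cox8b had -0.17 and -0.39 on the log2 scale.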

How the data were processed

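RNA-seq libraries of 12 eWA cultures, 3 in each of 4 groups, were analysed. The authors mapped reads to mm9 with STAR (2.4.2a) and obtained tags with HOMER (1 read kept per position and length) and counted RefSeq genes with iRNA-seq, and deposited raw counts per gene with the counted exon length. A limit on reads per position can compress the counts of abundant carriers. Titles gave each sample its group and its number. According to the study's text, experiments were independent. One figure legend of the study names another stimulus for these cells; the titles name ISO, and ISO was used here. Where replicates share material, p-values measure only the spread between these samples.

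Counts were analysed in R 4.3.3 with edgeR 4.0.16 (filterByExpr by group, 13543 genes kept; TMM factors 0.924 to 1.07; quasi-likelihood F-test, two-sided, 1 mean per group over all 12 libraries, no replicate term), with Benjamini-Hochberg adjustment over all tested genes. Log2 fold changes are given ± SE. CPM per kb divides CPM by counted exon length. The common biological coefficient of variation was 0.163. Replicate libraries of each group differed by more than sampling noise. DESeq2 1.42.0, other scalings, no filter, 2-group fits, a replicate block and leaving out each library were alternatives. The scripts were tested on simulated data. Members, role groups, partner and marker lists were chosen with earlier results of these data known. The text names every member called in a comparison except 1 that is not reported here and is left out of the plots, gives role groups by counts, and names further members, chosen after their values were seen, as examples without a call.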

Additional observations from a re-analysis of the deposited data

How the results depend on the processing

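Of the log2 fold changes recomputed for single members, 490 kept direction and side of the threshold, 33 no longer passed, 6 newly passed and 5 changed sign, all 5 being Slc25a25 in Lip+ISO against ISO, near 0. There its value was 0.0042 with DESeq2-style size factors, 0.0013 with DESeq2 and 0.0011 with the replicate block, and ranged from -0.163 to 0.215 with 1 library left out (0.215 without ISO 1 and 0.0903 without Lip+ISO 2). Requiring a log2 fold change of at least 1 left 2 higher and 0 lower members for ISO against DMSO and for Lip+ISO against Lip, and 0 and 0 for Lip+ISO against ISO. For Lip+ISO against Lip, 5 members were lower with library totals alone and 4 with DESeq2. For Lip against DMSO, 1 member (Slc25a25) was lower with DESeq2 and in the fit of these 2 groups only. For Lip+ISO against ISO, that kind of fit gave 1 higher member. With 1 library left out, lower members ranged from 2 to 6 for ISO against DMSO, from 0 to 4 for Lip+ISO against Lip and from 1 to 2 for Lip+ISO against ISO, where higher members ranged from 1 to 2, and for the interaction higher members ranged from 0 to 1. The cause of these shifts was not tested.

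With the replicate number as a block (the replicate block), 6 members were higher and 10 lower for ISO against DMSO, 5 and 5 for Lip+ISO against Lip, 0 and 1 (Slc25a25) for Lip against DMSO, 4 and 4 for Lip+ISO against ISO, and 1 (Slc25a25) and 0 for the interaction. Over all genes it raised the calls for ISO against DMSO from 3548 to 5212 and those for the interaction from 220 to 898. Libraries of the same number in different groups deviated together in 17 of 18 pairs (correlation over 0.1, lowest 0.0373, median 0.274). Of the 36 pairs of different number, 0 were over 0.1 (highest 0.0853, median -0.121). For all 12 libraries, the mean correlation with libraries of other groups was highest for their own number. These values are a hint from the data. The calls that the block added in ISO against DMSO were Slc25a12 and Slc25a28 (higher) and Slc25a1, Slc25a29, Slc25a38 and Slc25a53 (lower). As 1 same-number pair fell short and no label ties the numbers to a shared batch, the pairing was not used. The main fit thus leaves out whatever libraries of the same number share. DESeq2 gave an adjusted p for 34 to 45 members by comparison. Depth limits the 8 untested members, where 3 counts were worth 0.0678 to 0.132 CPM.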
